A study of Mus musculus with 12 samples.

Results

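Adult Lgr5-high intestinal stem cells (ISC) were compared with the intestinal epithelium of mouse embryos at embryonic stage E12.5 by their maps of trimethylated histone H3 lysine 4 (H3K4me3). The comparison used 4 of the 8 libraries with a peak list, 2 per group, and their lists were merged on the autosomes wherever peaks overlapped or touched. This gave 17640 regions, beside 24352 for all 8 lists with the sex chromosomes. All mice were a mixed C57BL/6 CD1 strain. E12.5 cells were sorted from dissected small intestine as living EpCAM-positive cells without the endothelial marker CD31 or the leukocyte marker CD45, with no transgene named, and E14.5 cells were sorted in the same way. ISC were Lgr5-EGFP-high cells from males of postnatal day 60 carrying Lgr5EGFP-Cre-ERT, an allele that reports the stem cell receptor Lgr5. Enterocytes, the absorptive cells of the villus, were EpCAM-positive cells from the same kind of adult mice. The sex of the embryos and the number of animals per library are not given in the labels. Both libraries of a group are described as biological duplicates.

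H3K4me3 is laid down around the start sites of genes that are active or poised, and it can spread over long domains at genes that are highly transcribed or that define a cell type. The early gut tube is a proliferating epithelium that has not yet formed villi. In the adult, Lgr5-positive cells at the base of the crypts divide and replace the epithelium, and enterocytes are among their progeny.

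The peak lists have mm9 positions and no gene names, and no mm9 annotation was used here. Regions are therefore given by position. The marker genes Olfm4, a secreted protein of adult stem cells, Elf3, an epithelial ETS factor, and Sox11, a factor of embryonic progenitors, were not assigned to regions, so the labelled cell types could not be checked against them. Sequences of the regions are not shown for the same reason.

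The 4 lists were of comparable but not equal strength. E12.5 had 10699 and 13218 autosomal peaks from 15053166 and 22696869 tags, and ISC had 12738 and 15115 from 13355462 and 25547814 tags (replicates 1 and 2). The median peak was 899 and 915 bp long at E12.5 and 1058 and 1151 bp in ISC. E12.5 replicate 1 was the weakest library, with 1439 peaks at a −log10 q of at least 10 against 6457 in E12.5 replicate 2, 6173 in ISC replicate 1 and 9917 in ISC replicate 2. The replicate 1 lists were largely contained in the replicate 2 lists (97.2% of peaks overlapped at E12.5 and 96.4% in ISC), while 78.4% and 80.6% overlapped in the other direction. Because the lists hold no reads per region, a region without a peak is one that was not called at that depth, and it is not shown to lack the mark. A mark on fewer cells and a weaker mark on all cells cannot be told apart in sorted bulk samples.

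Most of the H3K4me3 landscape was shared between the stages. Of the 17640 regions, 9649 were called in all 4 libraries, 1267 in 3, 2232 in 2 and 4492 in 1. In the deposited lists more regions were gained than lost in ISC. A total of 1518 regions had a peak in both ISC libraries and in neither E12.5 library (gained, 8.61% of all regions), and 372 had the reverse pattern (lost, 2.11%). With 2 libraries against 2 no single region can reach significance by presence alone, so these are counts without a test. The other regions that separated the libraries 2 against 2 followed the replicate number in 313 cases (called in both replicates 2 only) and in 5 cases (both replicates 1 only).

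Both counts depended on the length of the lists and on the libraries that the rule uses. When each list was held to its 10699 peaks of highest −log10 q, 775 regions were gained and 697 lost. With only peaks at a −log10 q of at least 10, 1091 were gained and 14 lost. The gained count rose to 2467 without E12.5 replicate 2 and to 3861 without ISC replicate 1, and the lost count rose to 1890 when E12.5 replicate 1 was left out, to 604 for E12.5 replicate 2 and to 639 for ISC replicate 2. Leaving out a library loosens the rule, as fewer libraries must hold or lack a peak, so that these counts rise largely by definition. For example, 2332 regions were called in ISC replicate 2 only. The 8.61% gained thus belongs to the lists as deposited and to this rule.

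Gained and lost regions were mostly short and weak. The mean covered length in ISC of a gained region had a median of 631.5 bp (range 172.5 to 6941 bp), and that of a lost region at E12.5 a median of 641.75 bp (range 186.5 to 4934.5 bp). Regions called in all 4 libraries had a median of 1037 bp in the E12.5 libraries and 1350.5 bp in ISC. The −log10 q of gained regions had a median at the 15.0 percentile of the regions called in ISC replicate 1 and at the 27.8 percentile in ISC replicate 2. For lost regions it stood at the 14.3 and 27.4 percentiles of the 2 E12.5 libraries. Long changes were fewer: 94 gained and 14 lost regions covered at least 2000 unscaled bp in the group that had them. Of the 9649 regions called in all 4 libraries, 2008 reached that mean length in at least 1 group. As those shared regions were also longer in ISC in unscaled bp, the cut favours gains. Long regions were not counted in lists of equal number.

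Gained regions lay somewhat closer to the shared landscape than lost ones. The median distance to the nearest region called in all 4 libraries was 40170 bp for gained and 143150 bp for lost regions, and 51737 bp for all 7991 regions called in 1 to 3 libraries. Of the gained regions, 10.3% lay within 5000 bp of a region called in all 4, against 2.42% of the lost and 7.92% of the regions called in 1 to 3 libraries. These distances are descriptions without a test. Per chromosome, the gained share ranged from 7.17% of regions on chromosome 5 to 10.6% on chromosome 17, and the lost share from 0.686% on chromosome 19 to 3.55% on chromosome 7.

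The covered length of a region, the bp under a library's peaks, was compared with limma after scaling the libraries to the same median over the regions called in all 4. Values below are unscaled bp, and log2 changes are on the scale of log2(scaled covered bp + 200). Of 13148 regions called in at least 2 of the 4 libraries, 1973 (15%) were longer in ISC and 868 (6.6%) shorter, at a Benjamini-Hochberg adjusted p of 0.05. Without a test, the scaled covered bp of both ISC libraries was above that of both E12.5 libraries in 33.4% of the tested regions and below it in 27%. The scaling matters to this balance. Without it 3095 regions were longer and 451 shorter, and the log2 change over all regions had a median of 0.35, against 0.03 with it. After quantile normalization 1357 were longer and 1165 shorter with a median of -0.06, so that 53.8% of the called regions were longer ones, against 69.4% in the main comparison and 87.3% without scaling. Both scalings together kept 1160 of the longer and 449 of the shorter calls.

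The number of calls also changed when single libraries were left out. When a library was left out before merging and filtering, 208 regions were longer without ISC replicate 1 and 282 without ISC replicate 2. The shorter regions became 305 without E12.5 replicate 1, 295 without ISC replicate 1, 527 without ISC replicate 2, 518 without E14.5 replicate 1 and 519 without E14.5 replicate 2. Against 13148 regions, 11617 and 11325 were tested without ISC replicates 1 and 2, and 12754 and 12450 without E12.5 replicates 1 and 2. A gained region fails the filter when an ISC library is left out, and 1185 of the 1973 longer calls were gained regions. Likewise, a lost region fails it when an E12.5 library is left out, and 366 of the 868 shorter calls were lost regions. On the regions tested with all libraries, a setting chosen after those results were seen, the longer count ranged from 1391 to 2649 and the shorter count from 644 to 1378, the highest of both without E12.5 replicate 2.

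**Figure D1:**
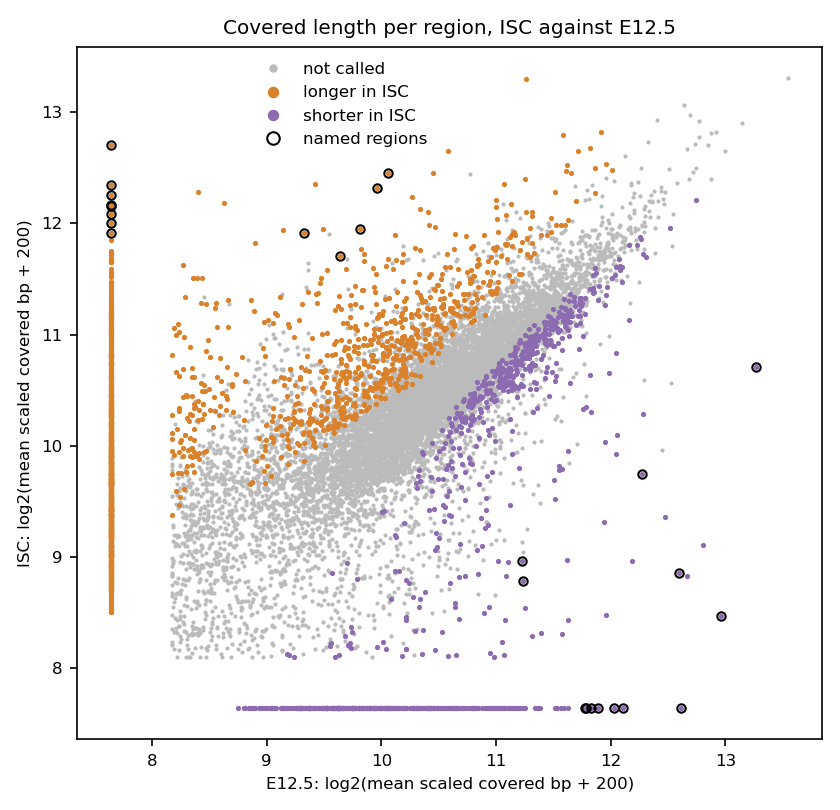
Covered length per region as log2(mean scaled covered bp + 200), E12.5 on the horizontal and ISC on the vertical axis, for the 13148 tested regions; orange points were called longer in ISC (1973), purple points shorter (868), grey points neither, and open circles mark the 26 regions described by position. The vertical line of points at the left edge holds regions with 0 bp in both E12.5 libraries, and the horizontal line at the bottom those with 0 bp in both ISC libraries.

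The longest H3K4me3 domain gained by ISC was found in ISC only. The region chr14:80399966-80407772 (mm9) had 0 bp in both E12.5 libraries, 0 bp in both E14.5 libraries, 6075 and 7807 bp in the ISC libraries and 0 bp in both enterocyte libraries. ISC did not overlap the other groups (6941 bp ± 1225, SD, n = 2; limma adjusted p = 8.49e-05). In ISC it was a single peak per library, the 17th longest of 12738 and the 14th longest of 15115. Its −log10 q was modest, at 5.741 and 8.951. A further long domain was adult rather than restricted to stem cells. The region chr1:132722753-132728336 had 0 bp in all 4 embryonic libraries, 5064 and 5584 bp in those of ISC and 4609 and 3906 bp in enterocytes, with adult libraries all above embryonic ones (adjusted p = 9.4e-05). These were the 2 of the 8 most changed regions that had no peak at E14.5.

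The other 6 of these 8 were already called in both E14.5 libraries, over lengths that ran from a small part of the ISC domain to all of it. At chr1:67158368-67163209 the mark covered 0 and 0 bp in the E12.5 libraries, 4553 and 3964 bp in those of E14.5, 4053 and 4753 bp in those of ISC and 0 bp in both enterocyte libraries. Both E14.5 and ISC stood apart from E12.5 (adjusted p = 0.000137 and 8.49e-05), and E14.5 and ISC overlapped. At chr10:79283334-79287661, E14.5 also overlapped ISC, with 3490 and 3924 bp against 3478 and 4328 bp. The mark stayed in enterocytes, at 4094 and 4325 bp inside the region. The whole enterocyte peaks were 5680 and 7390 bp long and ran on past the end of the region, so that these lengths are ceilings. The E12.5 libraries of this region had 0 bp (adjusted p = 7.42e-05 for ISC against E12.5). The region chr13:99459747-99465667 had 0 bp in both E12.5 libraries, 2861 and 3400 bp in those of E14.5, 3549 and 5921 bp in those of ISC and 2243 and 3157 bp in enterocytes. Its 2 ISC libraries differed more than those of any other region described here (4735 bp ± 1677): replicate 1 had 2 peaks with a gap between them where replicate 2 had 1 peak. It passed in ISC against E12.5 (adjusted p = 0.000101).

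In 3 regions the E14.5 libraries had short peaks. The region chr2:103138900-103144514 had 0 bp in both E12.5 libraries, 670 and 814 bp in those of E14.5, 5412 and 4401 bp in those of ISC and 0 bp in both enterocyte libraries. E14.5 lay between the 2 groups without overlap, although the E14.5 peaks were weak (−log10 q of 1.233 and 2.228) and did not overlap each other, at 2878 to 3548 and 3851 to 4665 bp from the start. Both steps passed (adjusted p = 0.00424 from E12.5 to E14.5 and 0.00188 from E14.5 to ISC). The same order held at chr7:148106674-148111377, with 0 bp in the E12.5 libraries, 1714 and 1873 bp in those of E14.5, 4602 and 4651 bp in those of ISC and 3415 and 4684 bp in enterocytes. There the steps had adjusted p = 0.000186 and 0.00188, and the change from E12.5 to ISC lost its call when the lists held only peaks at a −log10 q of 10 or more (adjusted p = 0.217). At chr10:12264503-12268926 the mark covered 0 bp in both E12.5 libraries, 1053 and 1032 bp in those of E14.5, 3878 and 4424 bp in those of ISC and 0 and 579 bp in enterocytes. ISC passed against E12.5 (adjusted p = 0.00417), but neither step did (adjusted p = 0.0676 and 0.226). The enterocyte libraries, which differ here, enter the spread of that fit. With only the 4 compared libraries in the fit, ISC against E12.5 had an adjusted p = 0.00941. For all 8 regions the 0 bp libraries have no spread, so that these adjusted p values may be too small and depend on the pseudocount of 200 bp.

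Among regions called in all 4 libraries, the 5 with the largest gains in length held a short peak at E12.5 and a long domain in ISC. At chr1:137149762-137155785 the mark covered 813 and 582 bp in the E12.5 libraries, 5822 and 5934 bp in those of E14.5, 5430 and 6024 bp in those of ISC and 5560 and 5586 bp in enterocytes. E12.5 stood apart from the other libraries, which all lay between 5430 and 6024 bp. The log2 change from E12.5 to ISC was 2.42 ± 0.19 (SE, adjusted p = 0.00058), and that from E12.5 to E14.5 was 2.33 (adjusted p = 0.00182). The E12.5 peaks lay between 4444 and 5257 bp from the start of this region of 6024 bp, so that the domain was longer mainly towards lower coordinates.

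The region chr7:139763008-139768414 was long at E14.5 and in ISC only. It covered 309 and 1053 bp in the E12.5 libraries, 5266 and 5396 bp in those of E14.5, 5015 and 5407 bp in those of ISC and 711 and 1305 bp in enterocytes, so that E12.5 and enterocytes overlapped at low and E14.5 and ISC at high lengths. The change from E12.5 to ISC was 2.47 ± 0.39 (adjusted p = 0.00763), and it missed the threshold without ISC replicate 1 (0.0894) or replicate 2 (0.0603). In ISC these peaks were the 41st longest of 12738 and the 60th longest of 15115.

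The other 3 regions stayed long in enterocytes. At chr16:18626315-18630665 the libraries rose in order, with 250 and 486 bp in the E12.5 libraries, 1695 and 2412 bp in those of E14.5 and 3475 and 4351 bp in ISC, and enterocytes overlapped ISC at 3507 and 4263 bp. The change of 2.62 ± 0.20 had an adjusted p = 0.000536, which became 0.758 when the lists held only peaks at a −log10 q of 10 or more. The region chr11:96789986-96794728 covered 678 and 438 bp in the E12.5 libraries, 2921 and 2491 bp in those of E14.5, 3338 and 4743 bp in those of ISC and 4486 and 4718 bp in enterocytes (2.18 ± 0.23, adjusted p = 0.00167). All later libraries were above E12.5. The whole enterocyte peaks there were 5214 and 7185 bp long and ran on past the end of the region. At chr11:3993740-3997453 the lengths were 220 and 802 bp in the E12.5 libraries, 3092 and 2559 bp in those of E14.5, 3005 and 3714 bp in those of ISC and 2749 and 3494 bp in enterocytes (2.18 ± 0.36, adjusted p = 0.00869). Again E12.5 stood apart, and the call was lost without ISC replicate 1 (0.0891), without ISC replicate 2 (0.0871) and with only the 4 compared libraries in the fit (0.0507). All 5 of these regions were longer at E14.5 than at E12.5 by limma.

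**Figure D2:**
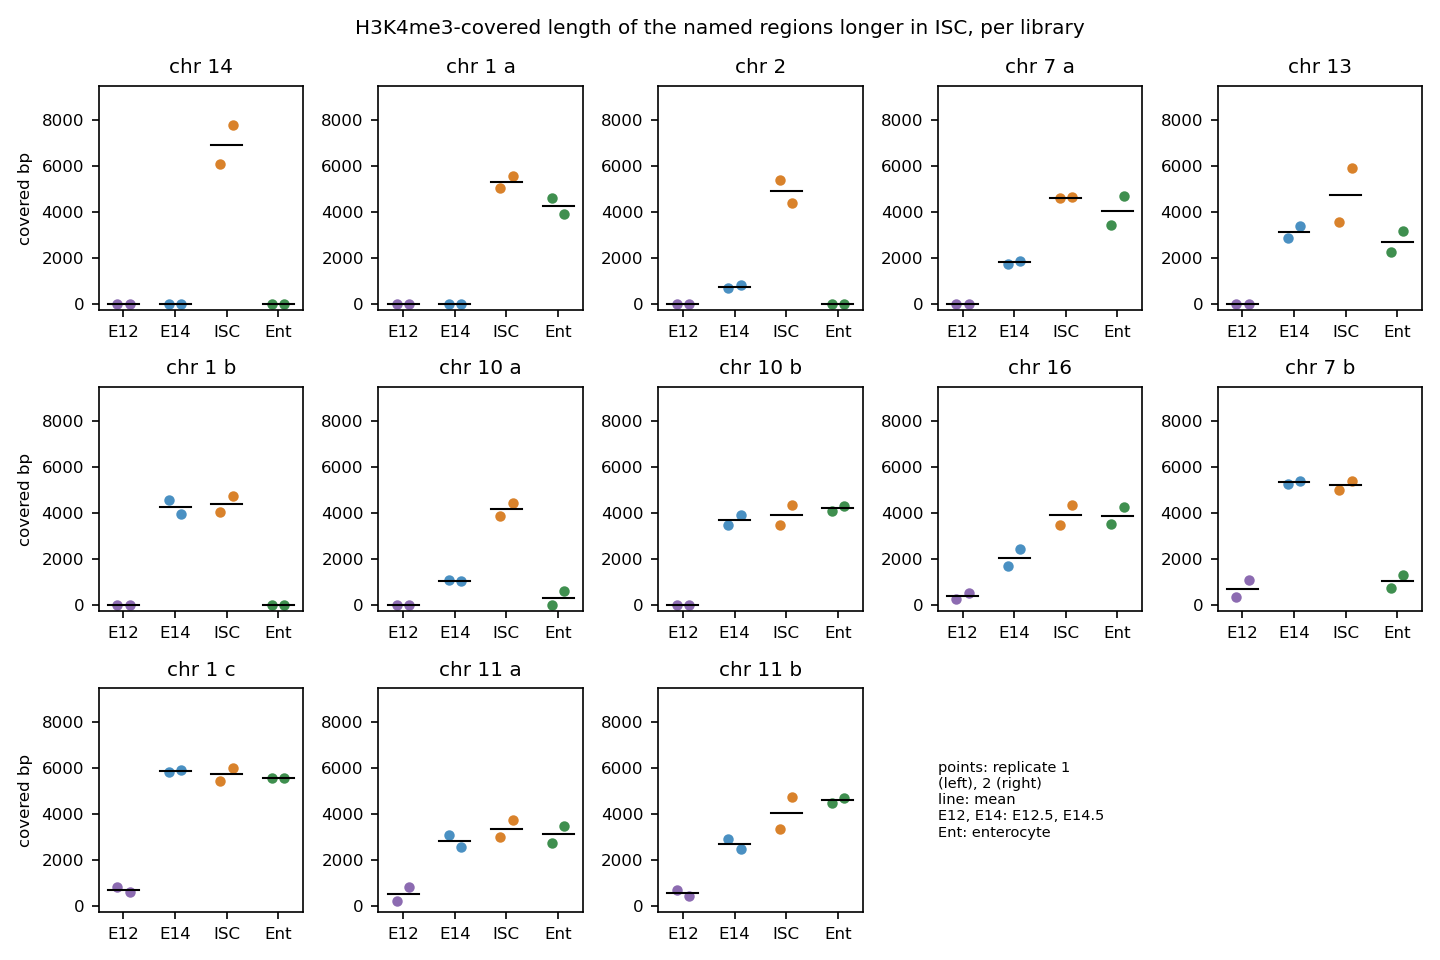
Covered bp of the 13 described regions longer in ISC, 1 panel per region named by its chromosome (letters follow the order of log2 change where a chromosome has several), with E12.5, E14.5, ISC and enterocytes (Ent) on the horizontal axis; points are the 2 libraries and lines their means. The E12.5 libraries lie at 0 in 8 panels and between 220 and 1053 bp in the other 5, and E14.5 lies at 0 in 2 panels, chr 14 and chr 1 a.

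The 2 largest reductions in ISC were at long embryonic domains on chromosome 11 that were still long at E14.5 and nearly or wholly uncalled in both adult groups. At chr11:18914657-18921110 the mark covered 6239 and 6444 bp in the E12.5 libraries, 6364 and 6304 bp in those of E14.5, 0 and 357 bp in those of ISC and 263 and 697 bp in enterocytes. The embryonic libraries overlapped one another and were all above the adult ones (log2 change -4.64 ± 0.48 from E12.5 to ISC, adjusted p = 0.00146). At E12.5 this was the 5th longest peak of 10699 and the 7th longest of 13218. The size of the change is uncertain because 1 ISC library had 0 bp.

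The region chr11:95864524-95869520 had 4872 and 4997 bp in the E12.5 libraries and was the longest lost region. It covered 4997 bp in both E14.5 libraries, 0 bp in both ISC libraries and 0 and 328 bp in enterocytes (adjusted p = 0.000721), so that adult and embryonic libraries did not overlap. Lengths at E14.5 and in enterocytes are counted inside the regions of the 4 compared lists. Here the E14.5 peaks ran on 2284 and 1595 bp below the start. An E14.5 value at or near the length of its region is therefore a ceiling, and it cannot show a mark longer than at E12.5. At chr1:72918167-72921950 the lengths were 3389 and 3048 bp in the E12.5 libraries, 3685 and 3677 bp in those of E14.5 and 0 bp in all 4 adult libraries (adjusted p = 9.4e-05). The 0 bp libraries of this and the other lost regions have no spread. Adjusted p values of lost regions, here and below, may thus be too small and depend on the pseudocount of 200 bp.

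Another 3 regions had 0 bp in both ISC libraries and were called along most of their length in both embryonic stages. The region chr5:143722012-143724861 covered 2831 and 2574 bp in the E12.5 libraries and 2850 bp in both E14.5 libraries, and chr14:117324496-117327559 covered 3043 and 2771 bp in the E12.5 libraries and 2703 and 2789 bp at E14.5. Both had 0 bp in all 4 adult libraries (adjusted p = 0.000101 and 1e-04). At the first of these the whole E14.5 peaks were 3713 and 3651 bp long, beyond the region at both ends. The region chr17:10510487-10513264 covered 2631 and 2778 bp in the E12.5 libraries, 2756 and 2778 bp in those of E14.5 and 0 and 903 bp in enterocytes. Its call (adjusted p = 0.0117) was lost without ISC replicate 1 or ISC replicate 2, and without E12.5 replicate 1 on the regions tested with all libraries. The call was kept with only the 4 compared libraries in the fit, which leaves out the differing enterocyte libraries.

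Only 2 of the 8 most reduced regions were already shorter at E14.5. At chr9:110643111-110646677 the mark covered 3328 and 3534 bp in the E12.5 libraries, 2027 and 1936 bp in those of E14.5 and 0 bp in all 4 adult libraries. At chr18:16965541-16968360 it covered 2791 and 2820 bp in the E12.5 libraries, 1690 and 1815 bp in those of E14.5 and again 0 bp in all 4 adult libraries. In both, E14.5 lay between E12.5 and ISC without overlap. The step from E12.5 to E14.5 had adjusted p = 0.00639 and 0.0118, with log2 changes of -1.21 and -1.09, and the step from E14.5 to ISC had adjusted p = 0.000669 in both. At both positions the peaks of E14.5 began over 1000 bp above the start of the region, while those of E12.5 began within 239 bp of it.

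Among regions called in all 4 libraries, the 5 with the largest losses kept a small peak inside the former domain. The longest, chr5:28784895-28793776, covered 7040 and 8783 bp in the E12.5 libraries, 8882 bp in both E14.5 libraries, 1160 and 2019 bp in those of ISC and 934 and 1404 bp in enterocytes. Embryonic and adult libraries did not overlap (log2 change -2.58 ± 0.19, adjusted p = 0.000432). The main ISC peaks lay 5851 to 7011 bp and 5637 to 7143 bp from the start, and those of enterocytes 5588 to 6522 bp and 5361 to 6765 bp, so that the remaining mark of the 4 adult libraries shared 1 stretch. At E12.5 this region held the 4th and the 2nd longest peak of the 2 lists. The call was lost when the lists held only peaks at a −log10 q of 10 or more (adjusted p = 0.745).

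At chr5:58105706-58111244 the mark covered 5028 and 4713 bp in the E12.5 libraries, 5539 bp in both E14.5 libraries, 281 and 272 bp in those of ISC and 0 bp in both enterocyte libraries. The ISC peaks of the 2 libraries overlapped, at 2872 to 3153 bp and 2848 to 3120 bp from the start (log2 change -3.74 ± 0.14, adjusted p = 9.4e-05), and the call was lost in lists of equal number (0.0905). At chr1:183948583-183950871 the lengths were 1447 and 2204 bp in the E12.5 libraries, 2289 bp in both E14.5 libraries, 176 and 482 bp in those of ISC and 0 bp in enterocytes (-2.30 ± 0.26, adjusted p = 0.00213). Embryonic libraries were again all higher. The remaining 2 calls changed with the libraries in the fit. The spread of the fit is pooled over all 4 groups, and at both regions only 1 enterocyte library had a peak. With only the 4 compared libraries in the fit both calls were kept (adjusted p = 0.00941 at chr6:84534990-84539441). The region chr6:84534990-84539441 covered 3434 and 4355 bp in the E12.5 libraries, 3269 and 3218 bp in those of E14.5, 581 and 838 bp in those of ISC and 0 and 609 bp in enterocytes (adjusted p = 0.0335). It missed the threshold without any single library of E12.5, ISC or E14.5 (0.0716 to 0.192). The region chr13:100284972-100286836 covered 1794 and 1806 bp in the E12.5 libraries, 1865 bp in both E14.5 libraries, 283 and 217 bp in those of ISC and 0 and 455 bp in enterocytes (adjusted p = 0.0239), and it likewise missed it without any one of these libraries (0.0561 to 0.153).

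**Figure D3:**
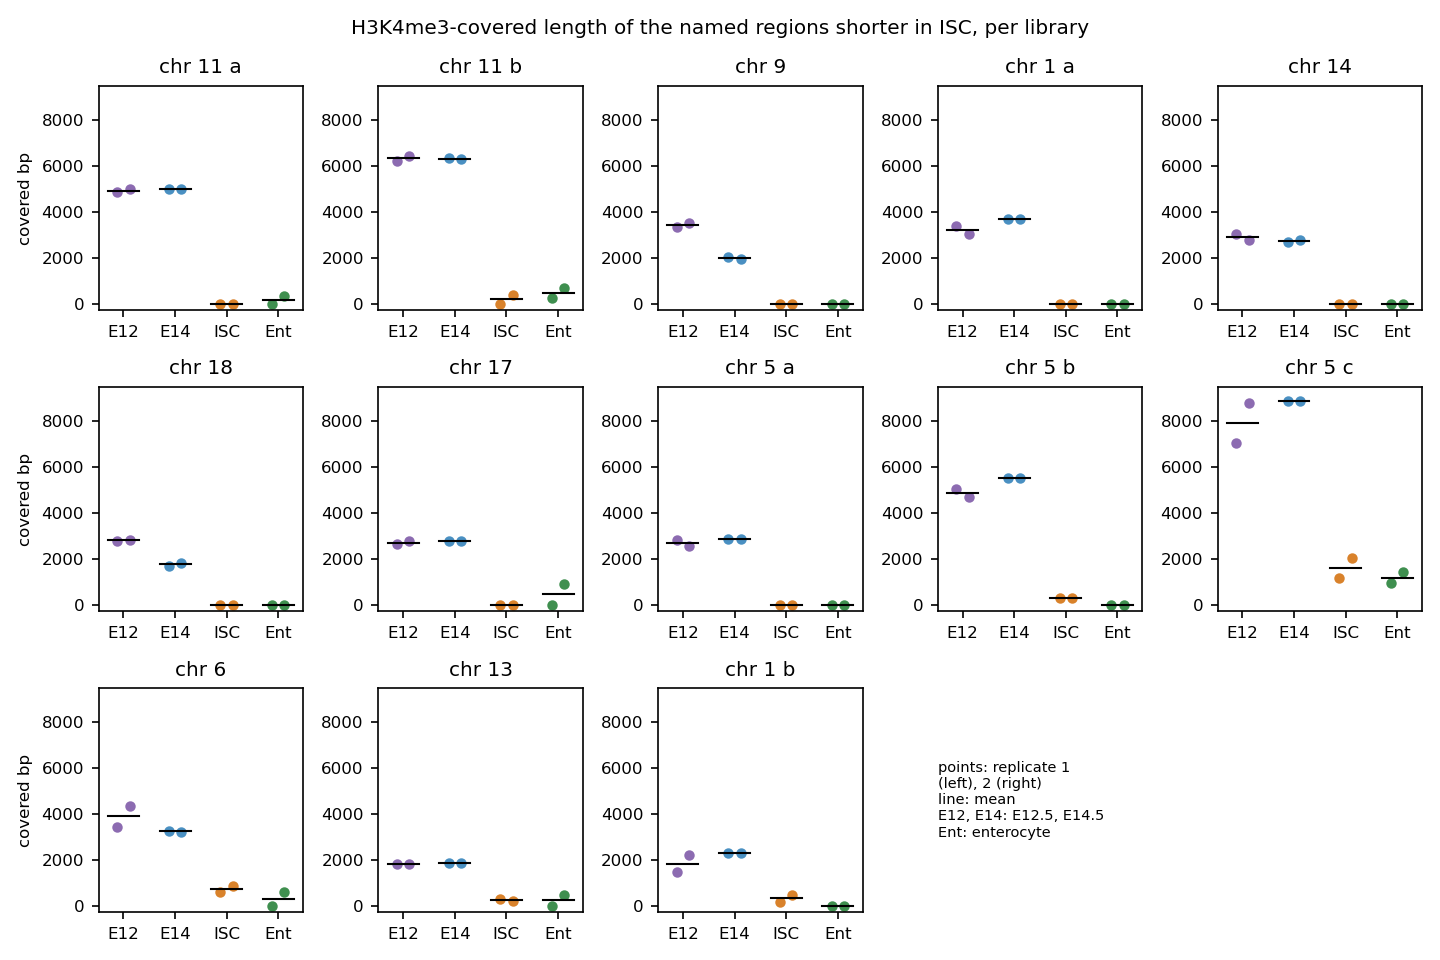
Covered bp of the 13 described regions shorter in ISC, 1 panel per region named by its chromosome (letters follow the order of log2 change), with the same axes and symbols as the panels of longer regions. Both E14.5 points lie below both E12.5 points in chr 9, chr 18 and chr 6, and the ISC libraries lie below 1000 bp except in chr 5 c, at 1160 and 2019 bp.

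By presence, 1030 of the 1518 gained regions (67.9%) had a peak in both E14.5 libraries, 127 in 1 and 361 (23.8%) in neither. Of the 372 lost regions, 364 (97.8%) were still called in both E14.5 libraries, 5 in 1 and 3 (0.806%) in neither. Over all 17640 regions, 79.2% were called in both and 18.1% in neither E14.5 library, so that the share of gained regions seen at E14.5 was below that of all regions. Among regions called in both ISC libraries the share was 95.8%, above that of the gained regions, and among those called in both E12.5 libraries it was 99.7%, near the 97.8% of the lost regions. These shares carry no test, and that of the lost regions does not set them apart. Gained regions were in neither E14.5 library in 23.8% of cases, against 3.04% of regions called in both ISC libraries. The part of their weaker peaks in this was not tested.

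The E14.5 lists held more peaks than those of the compared libraries, with 15668 and 17068 autosomal peaks. When the 6 lists of E12.5, E14.5 and ISC were each held to 10699 peaks, 242 of 775 gained regions (31.2%) had a peak in both E14.5 libraries and 445 in neither. Of 697 lost regions, 475 (68.2%) were then called in both and 146 (20.9%) in neither. The share of all regions called in both was 81.8% in these lists. A peak in both E14.5 libraries was thus found in over 50% of the gained regions in the deposited lists but not in lists of equal number, nor in the deposited lists without ISC replicate 1 (47.6%). For lost regions it was over 50% in both kinds of list. Without E12.5 replicate 1, where a single E12.5 library defines a loss, 51.6% of the lost regions were in neither E14.5 library.

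**Figure D4:**
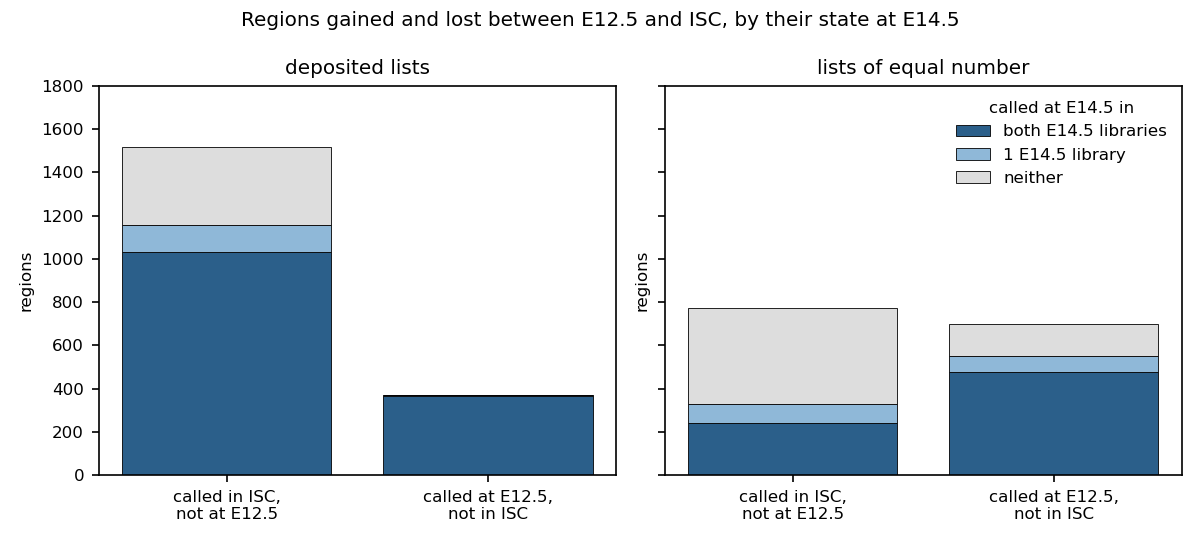
Number of regions gained (peak in both ISC and neither E12.5 library) and lost (the reverse), in the deposited lists on the left and in lists of 10699 peaks each on the right; the colours show whether both, 1 or neither E14.5 library had a peak there. In the deposited lists 1030 of 1518 gained and 364 of 372 lost regions had a peak in both E14.5 libraries, and in lists of equal number 242 of 775 and 475 of 697.

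The enterocyte lists divided the gained regions further, here without a test. Both enterocyte libraries had a peak in 55.7% of the 1518 gained regions, 1 in 26.9% and neither in 17.4%, against 83.2%, 12.6% and 4.17% of all regions called in both ISC libraries. Of the 361 gained regions without an E14.5 peak, 177 were called in both enterocyte libraries, 78 in 1 and 106 in none. The 106 regions called in ISC only had a median length of 405 bp (quartiles 304 and 720.6 bp), and the chromosome 14 domain of 6941 bp was the longest of them. The 177 regions shared by ISC and enterocytes had a median of 713.5 bp. Of the 1030 gained regions with a peak in both E14.5 libraries, 619 were also in both enterocyte libraries, 291 in 1 and 120 in none. None of the lost regions was called in both enterocyte libraries, 22 were called in 1 and 350 (94.1%) in none, against 6.38% in none of all regions called in both E12.5 libraries. Long gained regions of at least 2000 bp were called in both enterocyte libraries in 79 of 94 cases, near the 83.2% of all regions called in ISC. Of the 94, 72 had a peak in both E14.5 libraries, below the 95.8% of all regions called in both ISC libraries. The 14 long lost regions all had a peak in both E14.5 libraries, as did 99.7% of all regions called in both E12.5 libraries. In no enterocyte library were 12 of these 14 called.

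By covered length, the same fit called 1032 regions longer (7.85%) and 73 shorter (0.555%) at E14.5 than at E12.5, and 382 longer (2.91%) and 390 shorter (2.97%) in ISC than at E14.5. Gained regions, without spread at E12.5, made up 703 of the 1032. Lost regions, without spread in ISC, made up 337 of the 390. The contrasts share libraries and the spread of 1 fit, so that their calls overlap in part by construction. The values below belong to the regions called between E12.5 and ISC. They describe these regions and are no independent support for a change by E14.5. Of the 1973 longer regions, 1028 were also longer at E14.5 than at E12.5, and 380 were longer in ISC than at E14.5. Of the 868 shorter regions, 69 were also shorter at E14.5 than at E12.5, and 390 were shorter in ISC than at E14.5. The E14.5 lengths are cut at the ends of the regions, which limits how much longer E14.5 can be. After scaling by 0.75 and 0.89 at E12.5 and 1.16 and 1.17 at E14.5, a region wholly covered at E14.5 can score shorter than at E12.5. At chr11:95864524-95869520, with 4997 bp in both E14.5 libraries, the log2 change from E12.5 to E14.5 was -0.47. A region can pass in both steps or in neither.

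Among the 9649 regions called in all 4 libraries, where presence plays no part, 661 (6.85%) were longer and 441 (4.57%) shorter in ISC. The longer regions had a median scaled length of 832 and 881 bp in the E12.5 libraries, 1440 and 1452 bp in those of E14.5, 1706 and 1718 bp in those of ISC and 1759 and 1721 bp in enterocytes. The shorter regions had 2171 and 2110 bp in the E12.5 libraries, 1654 and 1653 bp in those of E14.5, 1411 and 1390 bp in those of ISC and 1494 and 1499 bp in enterocytes. In both classes the E14.5 medians lay between those of E12.5 and ISC on the scaled values. The cut at the region ends and the scaling both lower E14.5 against E12.5, and their part in this order was not tested. The classes were chosen on E12.5 and ISC, so that the distance between these 2 groups is given by the choice.

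The 2 classes differed in how they depended on the scaling. All 661 longer calls were kept without scaling, and 518 were kept after quantile normalization. Of the 441 shorter calls, 53 were kept without scaling and 342 after quantile normalization. In unscaled bp the shorter class had a median of 1736 bp in the E12.5 libraries, 1920 bp in those of E14.5 and 1487.5 bp in ISC. In the longer class the unscaled medians were 697.5, 1695.5 and 1829.5 bp. With only the 4 compared libraries in the fit, 243 of the longer and 96 of the shorter calls were kept.

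Both edges lay further out in ISC in 637 of the 661 longer regions, and in 6198 of all 9649 regions called in all 4 libraries (64.2%), in unscaled positions. In the longer regions, the edge that moved more lay a median of 781 bp further out in ISC than at E12.5, and the other edge 235 bp. In 354 regions (53.6%) at least 75% of the change was on 1 side, where an edge that moved the other way was not counted. Among the 441 shorter regions, both edges lay further in for 153. By the same measure 356 (80.7%) had at least 75% of the change on 1 side. This share includes by definition the regions with 1 edge further in and the other further out. The medians were 227 bp inward at the edge that moved more and -31.5 bp (outward) at the other. The mark of the longer regions was split into 2 or more peaks in 2.42% and 4.69% of cases in the E12.5 libraries and in 3.03% and 0.605% in the ISC libraries, so that the groups overlapped.

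**Figure D5:**
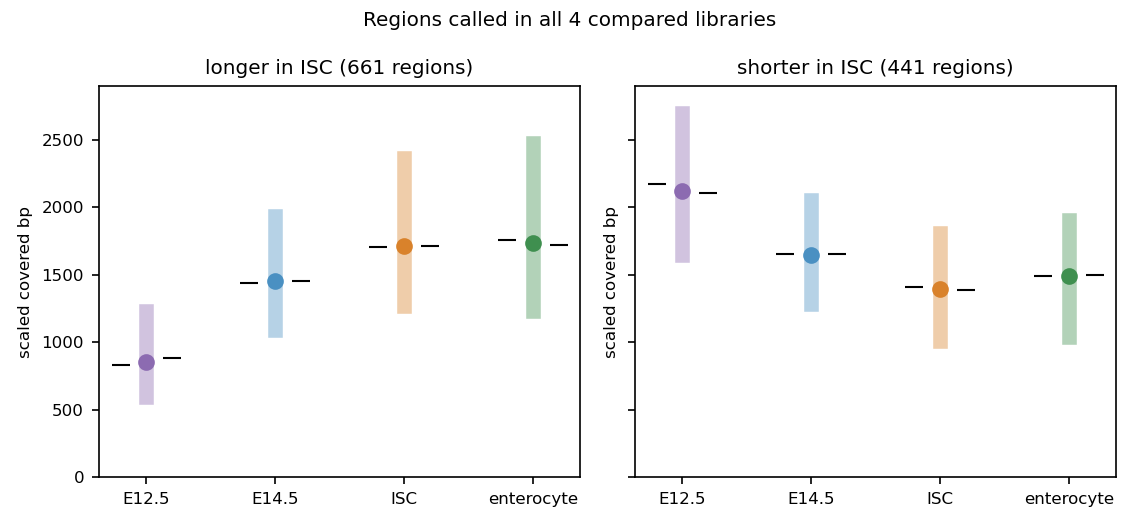
Scaled covered bp in each group for the 661 longer and 441 shorter regions among those called in all 4 compared libraries; circles are medians of the group means, bars run from the lower to the upper quartile, and short black lines are the medians of the 2 libraries. E14.5 lies between E12.5 and ISC in both panels, at 1457 and 1650 bp.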

How the data were processed

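H3K4me3 was immunoprecipitated and sequenced in 8 libraries, 2 per group, and 4 input libraries served as controls of the deposited peak calls. Each file is the authors' peak list of 1 library. The caller, per the file headers, was MACS 2.0.10.20130712 run for broad peaks, and both libraries of a group shared 1 input. Tools named in the submitters' processing notes are bcl2fastq 1.8.4, SAMtools 1.2 and Bowtie 1.1.2, and the genome named there is mm9. For each peak the columns give, per the file headers, its position, its length in bp, a pileup signal, a −log10 p-value and −log10 q-value and a fold enrichment (a ratio over the input), all deposited by the authors. The q-values were used here to rank or filter peaks within a list. Depth is the number of tags in the file headers and was 12821255 to 43259380.

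Covered bp per merged region was divided by a factor per library (0.75 and 0.89 at E12.5, 0.97 and 1.16 in ISC) that equalizes the medians over regions called in all 4 compared libraries. All 8 libraries in 4 groups entered a limma 3.58.1 fit (R 4.3.3) with a trended prior on log2(scaled covered bp + 200). It was two-sided with Benjamini-Hochberg adjustment over 13148 regions. The fit was also run on simulated lengths, with changes planted only in longer regions and without the scaling or the filter on libraries. That run does not cover regions with 0 bp in both libraries of a group.

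Regions were named by a rule: the 8 per direction with the largest log2 change among called regions whose libraries did not overlap, the 5 per direction called in all 4 libraries, and the 5 longest gained and lost, which the first 8 already held. These were 26 regions, 13 per direction. The rule also asked for the regions of Olfm4, Elf3 and Sox11, and gene lists were planned. Neither was done because gene tables were at hand only for GRCm38, whose coordinates were not used. The regions, lists and rule were chosen with earlier results of these data known. The classes by enterocyte state, the length of 2000 bp, the distances and the edge measures were chosen after values were seen, as was the leave-one-out setting that keeps the tested regions.

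The alternatives were other pseudocounts, scalings, minimum numbers of libraries, equal lists, stricter q, 500 bp, reciprocal overlap, the sex chromosomes kept, the replicate block and each library left out.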

Additional observations from a re-analysis of the deposited data

How the results depend on the processing

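Counts of gained regions went from 1518 to 775 in lists of equal number, and of lost regions from 372 to 697 in these lists, 14 at a −log10 q of at least 10 and 1249 with a reciprocal overlap of 50% counted on the peaks of replicate 1. With 1 library left out, which loosens the rule, 1568 to 3861 regions were gained and 379 to 1890 lost. The share of gained regions called at E14.5 (67.9%) was 76.2% when 1 E14.5 library sufficed, 31.2% in lists of equal number, 98.8% at a −log10 q of at least 10, 77.5% with at least 500 bp covered and 47.6% to 80.1% with 1 library left out. At a −log10 q of at least 10, E12.5 replicate 1 kept 1439 peaks and the E14.5 libraries 11612 and 11592. The 98.8% thus belongs to another set of gained regions, which E12.5 may hold with weaker peaks. The share of lost regions in neither E14.5 library (0.806%) was 20.9% in lists of equal number, 0% at a −log10 q of at least 10 (0 of 14) and 0.806% to 51.6% with 1 library left out.

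By limma, longer and shorter regions (1973 and 868) were 3095 and 451 without scaling, 460 and 192 with at least 3 libraries required, 646 and 12 at a −log10 q of at least 10, and 1596 and 513 with only the 4 compared libraries in the fit. With 1 library left out before merging they ranged from 208 to 2652 and from 295 to 1084, and on the regions tested with all libraries from 1391 to 2649 and from 644 to 1378, the latter an alternative chosen after the first was seen. Regions called in 1 group only drop out of testing when at least 3 libraries are required. They also drop out when a library of that group is left out before merging. The cause of the other changes was not tested. The calls of each kind that passed in all 4 fits leaving out a compared library before merging numbered 141 and 48, against 1183 and 449 on the regions kept.

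The replicate block gave 1986 longer and 886 shorter regions, of which 1868 and 779 were called without it. The labels do not say that a replicate number pairs samples, and the replicate differences correlated over regions with r = 0.28 for E12.5 and ISC, 0.27 for ISC and enterocytes, 0.22 for E12.5 and enterocytes, and 0.01 to 0.04 for E14.5 with each other group. Of 534 values for the 26 described regions, 492 stayed on their side of the threshold, 42 lost the call and none changed direction. A further 64 could not be tested because the region no longer met the filter or had no peak left. Promoter windows of other widths and gene lists were not run, since no mm9 annotation was used.

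The replicate 1 libraries were shallower, with 15053166 tags at E12.5 and 13355462 in ISC, and the part of depth in the results was not tested. Each group has its own input, so that stage and input cannot be told apart. With 2 libraries per group the spread is estimated from 4 residual degrees of freedom over 4 groups.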

Other observations

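The sex chromosomes were left out of the comparison, since ISC came from males and the sex of the embryos is not given. On chromosome X, merging gave 585 regions: 305 had a peak in all 4 libraries, 47 were gained in ISC and 28 lost. On chromosome Y, 45 regions included 9 called in all 4 libraries, 3 gained and 2 lost. With both chromosomes kept, 1568 regions were gained and 402 lost.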
